A study of Mus musculus with 12 samples.

Results

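The expression of 10 core genes of the Hippo pathway was followed in mouse hearts 9 h after pressure overload: Stk4, which encodes MST1, its paralog Stk3 (MST2), Sav1, Lats1, Lats2, Mob1a, Nf2, Yap1, Wwtr1 (TAZ) and Tead1. They were chosen by gene symbol, with earlier results of these data known, as were the gene lists used further on. The reason was that MST1 phosphorylates serine 14 of Bcl-xL under oxidative stress and that the other 9 genes act with it in one pathway. For acute pressure overload the study proposes that the kinase ERK phosphorylates this serine, and that its early phosphorylation may be independent of MST1. All 10 genes were found among the 13552 genes of the deposited table. The study compared 4 groups of 3 male mice aged 8 to 10 weeks: wild type (WT) after sham surgery, WT after transverse aortic constriction (TAC), Bcl-xL Ser14Ala knock-in (KI) mice after sham surgery, and KI mice after TAC. TAC narrows the aorta and loads the left ventricle with pressure. Strain labels give C57BL/6 for all mice. The KI mice carry an alanine codon in place of serine codon 14 of Bcl2l1, the gene of Bcl-xL, on both alleles and in every cell, from several targeted embryonic stem cell clones that were crossed back to C57BL/6J, and the methods name purchased C57BL/6J mice as wild types, so that the 2 genotypes were not stated to be littermates. RNA came from the heart as a whole, so that a lower value can mean fewer cells of one type or less RNA in each cell, and these cannot be told apart.

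In the Hippo pathway, MST1 and MST2 bind the scaffold SAV1 and phosphorylate the kinases LATS1 and LATS2 and their activator MOB1. LATS kinases in turn phosphorylate the coactivators YAP and TAZ, which are then held in the cytoplasm or degraded, while merlin, the product of Nf2, brings LATS to the membrane. YAP and TAZ that reach the nucleus bind TEAD factors and switch on genes such as Ccn2, Ccn1 and Ankrd1. In the heart the pathway is known for limiting cardiomyocyte proliferation and organ size, and MST1 is also known as a kinase that promotes cell death under stress. RNA levels do not report the phosphorylation of these proteins.

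Transcript levels were given in RPKM (reads divided by exon length and by the gene reads of the library), and differences were tested with limma on log2(RPKM + 1) over 11240 genes, those with 1 RPKM or more in 3 or more of the mice, with p-values adjusted by the Benjamini-Hochberg method over all of them. This scale understates the change of genes with low values. The libraries held 23650191 to 32455166 reads on genes, as read from the steps of the low values, and mitochondrial transcripts took 6.36% to 12.5% of them. At this depth Stk3 rested on 78 to 151 reads per mouse, Stk4 on 346 to 683 and Tead1 on 3645 to 12611. Cardiomyocyte markers were all present (6 of 6, with a summed level of 2402 to 6212 RPKM), while none of 6 lymphocyte markers and only 1 of 5 atrial and 1 of 5 adipocyte markers were among the genes analysed here. The filter on genes of the deposited table is not given, so a missing marker does not show that those cells were absent.

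Bcl2l1, whose codon is changed in KI mice, was 7.04, 14.2 and 15.4 RPKM in WT sham hearts, 7.50, 17.2 and 6.59 RPKM in WT TAC hearts, 6.67, 19.1 and 16.0 RPKM in KI sham hearts and 35.8, 37.0 and 24.5 RPKM in KI TAC hearts. Every KI TAC heart stood above all 9 other hearts. A level cannot show a codon, so these values do not check the genotype labels. Bcl2l1 rose after TAC in KI hearts (log2 fold change 1.26, SE 0.40, adjusted p = 0.0354 from limma) and exceeded the WT level after TAC (1.64, SE 0.40, adjusted p = 0.0231), and each call was lost in 4 of 6 fits that left out 1 mouse. In WT hearts the difference between TAC and sham was −0.26 (SE 0.40, adjusted p = 0.706), and it ran from −0.65 to −0.021 with 1 mouse left out. The interaction of genotype and surgery, 1.51 (SE 0.56, adjusted p = 0.248), did not pass. In the fits that lost the call, the log2 fold change in KI hearts was 0.83 and 1.41 without mice 1 and 3 of the KI sham group and 1.18 and 1.15 without mice 5 and 6 of the KI TAC group. Between the TAC groups it was 1.49 and 1.40 without mice 7 and 10 of the WT TAC group and 1.56 and 1.54 without mice 5 and 6 of the KI TAC group.

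The 10 genes lie on 10 different chromosomes of GRCm38. Stk4 (ENSMUSG00000018209) spans chromosome 2 from 164070322 to 164155524 on the plus strand, with 5860 bases of exon. Mob1a (ENSMUSG00000043131) spans chromosome 6 from 83326016 to 83343776 on the plus strand, Yap1 (ENSMUSG00000053110) chromosome 9 from 7931999 to 8004596 on the minus strand, and Wwtr1 (ENSMUSG00000027803) chromosome 3 from 57455649 to 57575910 on the minus strand. Of the exonic bases of Lats2, 42.4% are shared with the gene Gm49361 on the same strand, and of those of Sav1 25.4% are shared with Atl1 on the opposite strand. For Lats2 no strand setting can part the reads of the shared stretch, because both genes lie on the same strand. For Sav1 this depends on the strand setting of the counting, which was not given in the sources used here. How reads in those stretches were counted is not known, and the values of Lats2 and Sav1 are uncertain to that degree.

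TEAD factors bind the letters GGAATG or, on the other strand, CATTCC. Because TEAD1 and its coactivators are members here, the 250 bases before each annotated start were searched for these 6 letters on both strands in RefSeq promoter sequences of GRCm38.p6. Of the 8 members with a promoter sequence, 4 held a match (Mob1a, Sav1, Yap1 and Wwtr1), against 12.6% of all 32851 RefSeq promoter windows and 14.4% of 27025 genes with at least 1 window. Stk4, Lats1, Lats2 and Nf2 had no match in these windows. The stretches around the matches of the 4 members are shown with those of Ankrd1, which holds 2 matches, and Ccn1, which holds 1, because these are the classical outputs of the pathway, and the last 60 bases before the RefSeq start of Stk4 are shown for contrast. All are written 5′ to 3′ on the strand of the gene, with matches in capitals.
Mob1a, chr6:83325803-83325862, plus strand: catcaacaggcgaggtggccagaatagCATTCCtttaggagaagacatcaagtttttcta
Sav1, chr12:69987076-69987135, minus strand: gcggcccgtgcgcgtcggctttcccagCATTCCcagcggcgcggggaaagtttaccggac
Yap1, chr9:8004705-8004764, minus strand: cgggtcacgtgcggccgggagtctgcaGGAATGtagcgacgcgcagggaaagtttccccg
Wwtr1, chr3:57576014-57576073, minus strand: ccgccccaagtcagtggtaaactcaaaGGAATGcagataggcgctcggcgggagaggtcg
Ankrd1, chr19:36119935-36120081, minus strand: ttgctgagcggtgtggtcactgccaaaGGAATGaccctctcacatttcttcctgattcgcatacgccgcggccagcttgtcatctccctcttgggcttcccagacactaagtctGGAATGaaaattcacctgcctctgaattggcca
Ccn1, chr3:145650056-145650115, minus strand: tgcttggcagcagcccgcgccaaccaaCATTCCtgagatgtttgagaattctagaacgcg
Stk4, chr2:164074078-164074137, plus strand: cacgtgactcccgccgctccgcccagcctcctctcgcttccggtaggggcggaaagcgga
The match begins 209 bases before the start in Mob1a, 106 in Sav1, 141 in Yap1 and 136 in the Wwtr1 window shown, and 210 and 123 bases before it in Ankrd1. A match describes the letters only, and binding was not measured. Among the YAP/TEAD target genes described further on, 6 of the 15 with a promoter sequence held a match.

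The levels of the 10 genes, which RPKM allows to be compared because it divides by length, formed an order. The places of Lats2 and Sav1 in it are subject to the shared exons described above. Wwtr1 had the highest mean over the 12 mice (31.3 ± 5.34 RPKM, SD), followed by Nf2 (24.8 ± 2.93), Tead1 (20.7 ± 6.30), Yap1 (18.5 ± 4.57), Sav1 (11.4 ± 3.21), Mob1a (7.29 ± 1.91), Lats1 (3.96 ± 0.86), Lats2 (3.87 ± 0.36), Stk4 (2.94 ± 0.64) and Stk3 (0.64 ± 0.14). The transcripts of the nuclear end of the pathway and of merlin were thus several times more abundant than those of the kinases. Yap1 exceeded Sav1, Mob1a exceeded Lats1, and Stk4 exceeded Stk3 in all 12 mice. The other neighbours did not separate in every mouse. Lats1 was higher than Lats2 in 5 of 12 mice, Nf2 than Tead1 in 8, Tead1 than Yap1 in 8, Wwtr1 than Nf2 in 10, Sav1 than Mob1a in 11 and Lats2 than Stk4 in 11. Wwtr1 ranked first in the mean of each group except KI TAC, where Nf2 did.

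**Figure D1:**
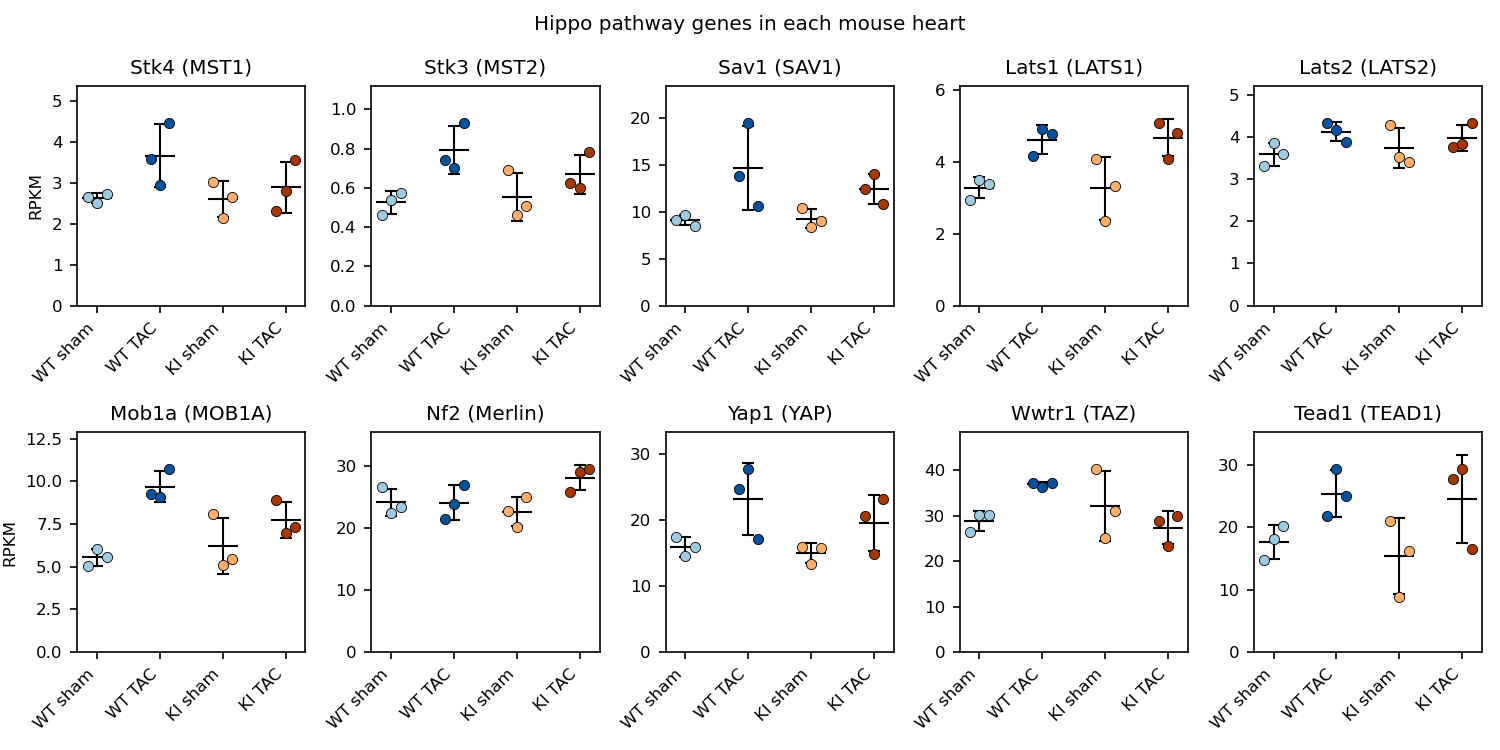
RPKM of the 10 Hippo genes in each of the 12 hearts, 1 panel per gene with its own axis starting at 0; points are mice, horizontal lines are group means and bars are SDs (n = 3). The 3 WT TAC hearts lie above the 3 WT sham hearts for Mob1a (9.08 to 10.7 against 5.04 to 6.03 RPKM), while the groups overlap for Nf2.

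In WT hearts, TAC was followed by a higher level of Mob1a. Of the other 8 core genes tested, 7 had a positive log2 fold change that did not pass the test, and Nf2 had one near 0. Mob1a, whose product activates LATS kinases, was 5.04, 6.03 and 5.55 RPKM in WT sham hearts and 9.24, 9.08 and 10.7 RPKM in WT TAC hearts, a mean of 5.54 ± 0.49 against 9.68 ± 0.90 (SD, n = 3 each). Every WT TAC heart was above every WT sham heart, and the log2 fold change was 0.71 (SE 0.18, 95% interval 0.33 to 1.09, adjusted p = 0.0202 from limma). Mob1a was the only one of the 9 members tested to pass the threshold, where 11.6% of all genes tested did, 6.96% of them higher and 4.60% lower (as shares of all genes), so that 1 of 9 is a share near that of all genes. It kept its call under each of the 6 other ways of processing (adjusted p 0.0205 to 0.0337) and lost it in 3 of 6 fits that left out 1 mouse, without WT sham mouse 1 (0.65, adjusted p = 0.0679), WT sham mouse 3 (0.71, adjusted p = 0.0659) or WT TAC mouse 7 (0.74, adjusted p = 0.0602).

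Stk4 was 2.66, 2.50 and 2.72 RPKM in WT sham hearts and 3.56, 2.94 and 4.46 RPKM in WT TAC hearts. The groups did not overlap, although WT TAC mouse 9 was close to the sham range, and the log2 fold change was 0.35 (SE 0.17, unadjusted p = 0.0547, adjusted p = 0.189 from limma). Without WT TAC mouse 10, which had the highest Stk4, it was 0.23 (adjusted p = 0.405). Stk3 stayed under 1 RPKM in all 12 mice and was therefore not tested with the others. It was 0.46, 0.54 and 0.58 RPKM in WT sham hearts and 0.74, 0.70 and 0.93 RPKM in WT TAC hearts, and in a fit without the filter its log2 fold change was 0.23 (SE 0.092, adjusted p = 0.126 from limma). At this level the added 1 RPKM weighs heavily, and the log2 ratio of the group means without it was 0.59.

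Sav1, the scaffold that joins MST to LATS, was 9.11, 9.62 and 8.53 RPKM in WT sham hearts and 13.8, 19.5 and 10.7 RPKM in WT TAC hearts. The TAC hearts were all higher and spread over a wider range, and the log2 fold change of 0.60 (SE 0.20, unadjusted p = 0.00957) had an adjusted p of 0.0676 from limma. Lats1 was 2.95, 3.50 and 3.39 RPKM after sham and 4.17, 4.91 and 4.77 RPKM after TAC, again without overlap (log2 fold change 0.39, SE 0.17, adjusted p = 0.142 from limma). Its paralog Lats2 went from 3.32, 3.86 and 3.61 RPKM to 4.33, 4.18 and 3.89 RPKM, a smaller difference of 0.16 on the log2 scale (SE 0.14, adjusted p = 0.474 from limma). Nf2 did not lean either way, at 26.6, 22.5 and 23.4 RPKM after sham and 21.5, 23.8 and 27.1 RPKM after TAC (log2 fold change −0.0056, 95% interval −0.36 to 0.35, adjusted p = 0.988 from limma).

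At the nuclear end of the pathway, Yap1 was 17.5, 14.5 and 15.9 RPKM in WT sham hearts and 24.7, 27.8 and 17.1 RPKM in WT TAC hearts. WT TAC mouse 10 fell inside the sham range while the other two were well above it, and the log2 fold change was 0.49 (SE 0.21, unadjusted p = 0.0341, adjusted p = 0.143 from limma). Wwtr1, the other coactivator, was 26.3, 30.2 and 30.1 RPKM after sham and 37.3, 36.4 and 37.2 RPKM after TAC. The 3 TAC hearts were nearly equal and above all sham hearts (log2 fold change 0.35, SE 0.19, adjusted p = 0.246 from limma). Tead1, the DNA-binding partner, was 14.8, 18.1 and 20.2 RPKM after sham and 21.9, 29.3 and 25.0 RPKM after TAC (log2 fold change 0.50, SE 0.28, adjusted p = 0.267 from limma).

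Of the 9 members tested, 8 had a positive log2 fold change after TAC in WT hearts, with a median of 0.39 against 0.035 over all genes tested, and 4 had an unadjusted p under 0.05 (27.9% of all genes did). In 7 of the 9 every WT TAC heart was above every WT sham heart (Stk4, Sav1, Lats1, Lats2, Mob1a, Wwtr1 and Tead1), and 20.0% of all genes showed this. Leaving out WT TAC mouse 10 changed the count of calls from 1 to 3, as Sav1 (0.79, adjusted p = 0.0176) and Yap1 (0.68, adjusted p = 0.0425) then passed with Mob1a. Without WT TAC mouse 9, which had the highest Sav1, the value of Sav1 was 0.38 (adjusted p = 0.237). WT TAC mouse 10 was the one with the lowest Sav1 and Yap1 and the highest Stk4 and Mob1a of its group, and it also had the highest summed levels of fibroblast markers (602.6 RPKM, against 140 to 258 RPKM in sham hearts) and of macrophage markers (98.8 RPKM, against 39.8 to 52.2 RPKM). In the macrophage list 3 of 6 genes were called higher in WT TAC hearts, and of 4 neutrophil markers 3 were. The summed cardiomyocyte markers were lower, without overlap, at 2402 to 3669 RPKM in WT TAC hearts against 4583 to 6212 RPKM in WT sham hearts, with 1 of 6 called lower, and the erythroid sum was 74.8 to 114 RPKM against 145 to 171 RPKM, with none of 5 called. A sum weights each marker by its level. Within the cardiomyocyte list, Ttn was 38.5 to 87.9 RPKM after sham and 69.2 to 98.6 RPKM after TAC in WT hearts. Ryr2 was 74.9 to 128 RPKM after sham and 68.5 to 116 RPKM after TAC, so both overlapped and neither followed the sum. The remaining markers of that list are not given singly. Of 6 smooth muscle and pericyte markers 1 was called higher and 1 lower. The part of these cells in the levels of the Hippo genes was not tested.

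**Figure D2:**
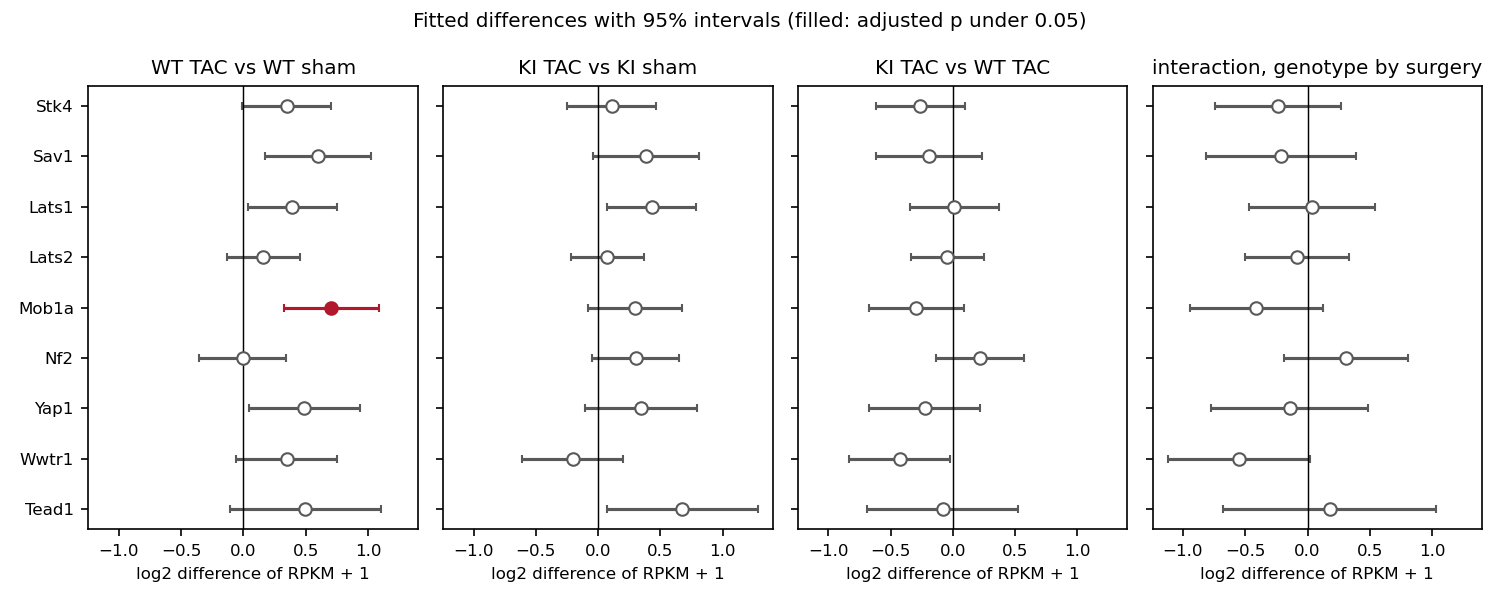
Fitted differences of log2(RPKM + 1) for the 9 genes tested, in 4 panels: TAC against sham in WT hearts, TAC against sham in KI hearts, KI TAC against WT TAC, and the interaction of genotype and surgery. Circles are estimates and bars 95% intervals; the filled red circle, Mob1a in WT hearts at 0.71, is the only one past an adjusted p of 0.05.

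In KI hearts, none of the 9 members passed the threshold after TAC, where 23.3% of all genes tested did (8.57% higher and 14.7% lower), and 2 members had an unadjusted p under 0.05 in limma (36.8% of all genes did). By another tool, limma-voom on the recovered reads, the count was 0 as well. Tead1 was 20.99, 8.90 and 16.2 RPKM in KI sham hearts and 27.7, 29.3 and 16.5 RPKM in KI TAC hearts. These groups overlapped, with KI sham mouse 2 the lowest of all 12 hearts and KI TAC mouse 7 within the sham range, and the log2 fold change was 0.68 (SE 0.28, adjusted p = 0.0983 from limma). It was past the threshold without KI sham mouse 1 (0.93, adjusted p = 0.0399) or without KI TAC mouse 7 (0.93, adjusted p = 0.0334), and it was 0.35 (adjusted p = 0.353) without KI sham mouse 2. The low Tead1 of KI sham mouse 2 went along with a low level of Ttn, the long transcript of the sarcomere protein titin, at 39.0 RPKM against 95.1 and 74.0 RPKM in the other KI sham hearts, and WT sham mouse 1, with the lowest Tead1 of its group, had 38.5 RPKM of Ttn against 75.7 and 87.9 RPKM. After TAC, KI mouse 7 had 46.7 RPKM of Ttn against 55.5 and 64.6 RPKM, and WT mouse 7 had 69.2 RPKM against 83.6 and 98.6 RPKM. In each of the 4 groups the heart with the lowest Ttn thus also had the lowest Tead1. Whether a property of these libraries bears on both transcripts was not tested.

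Lats1 was 4.09, 2.35 and 3.33 RPKM in KI sham hearts and 5.09, 4.09 and 4.82 RPKM in KI TAC hearts. KI sham mouse 1 and KI TAC mouse 6 were level with each other at 4.09 RPKM, and the log2 fold change was 0.43 (SE 0.17, unadjusted p = 0.0220, adjusted p = 0.0774 from limma). Lats1 passed after quantile normalization (0.51, adjusted p = 0.0344) and without KI sham mouse 1 (0.57, adjusted p = 0.0355), which raised the count of members from 0 to 1 and, with Tead1, to 2. Without KI sham mouse 2 the value of Lats1 was 0.27 (adjusted p = 0.261). Lats2 was 4.30, 3.53 and 3.41 RPKM after sham and 3.77, 3.84 and 4.35 RPKM after TAC, with overlapping groups (0.073, SE 0.14, adjusted p = 0.733 from limma).

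The MST end of the pathway had no larger differences in KI hearts. Stk4 was 3.00, 2.13 and 2.64 RPKM after sham and 2.31, 2.80 and 3.54 RPKM after TAC (log2 fold change 0.11, SE 0.17, 95% interval −0.25 to 0.47, adjusted p = 0.669 from limma). Stk3 was 0.69, 0.46 and 0.51 RPKM after sham and 0.63, 0.60 and 0.78 RPKM after TAC. For both paralogs the groups overlapped, and KI sham mouse 1 had the highest value among the KI sham hearts, as it had for Sav1, Lats1, Lats2, Mob1a, Yap1, Wwtr1 and Tead1. Sav1 was 10.4, 8.38 and 9.01 RPKM after sham and 12.4, 14.1 and 10.8 RPKM after TAC, and Nf2 was 22.7, 20.3 and 25.1 RPKM after sham and 25.9, 29.1 and 29.6 RPKM after TAC. These were the only 2 members in which every KI TAC heart was above every KI sham heart (13.6% of all genes showed this), with log2 fold changes of 0.38 (SE 0.20, adjusted p = 0.178 from limma) and 0.30 (SE 0.16, adjusted p = 0.196).

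Mob1a, which rose in WT hearts, was 8.08, 5.09 and 5.42 RPKM in KI sham hearts and 8.91, 6.99 and 7.30 RPKM in KI TAC hearts (log2 fold change 0.30, SE 0.18, adjusted p = 0.242 from limma). KI sham mouse 1 lay within the TAC range, and the value was 0.48 without it and 0.19 without KI sham mouse 2 (adjusted p = 0.0683 and 0.515). Yap1 was 15.9, 13.3 and 15.8 RPKM after sham and 20.7, 14.9 and 23.2 RPKM after TAC (0.35, SE 0.21, adjusted p = 0.248 from limma), with KI TAC mouse 6 among the sham values. Wwtr1 was the only member with a lower mean after TAC, at 40.3, 25.0 and 31.1 RPKM after sham and 28.9, 23.4 and 29.9 RPKM after TAC (−0.20, SE 0.19, adjusted p = 0.462 from limma). The groups overlapped for Wwtr1, and its log2 fold change ran from −0.36 to −0.032 with 1 mouse left out, the latter without KI sham mouse 1. After median-ratio scaling it was −0.10. Over the 9 members the median log2 fold change was 0.30, against −0.10 over all genes tested, both as deposited. The median over all genes was −0.022 after median-ratio scaling of the libraries and −0.020 after quantile normalization. In the same hearts all 4 neutrophil markers were called higher after TAC, with a sum of 4.67 to 21.99 RPKM against 0.57 to 0.75 RPKM after sham. Among cardiomyocyte, fibroblast, macrophage and smooth muscle and pericyte markers, 1 of 6 in each list was called lower. The cardiomyocyte sum was 3327 to 5505 RPKM after TAC and 4454 to 4893 RPKM after sham, with overlap. The part of these cells in the Hippo genes was not tested.

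Among TAC hearts, no member differed between genotypes past the threshold, where 11.0% of all genes tested did (2.92% higher and 8.13% lower in KI hearts), and 1 member had an unadjusted p under 0.05 in limma (30.3% of all genes did), and none passed in limma-voom on the recovered reads. That member was Wwtr1, at 28.9, 23.4 and 29.9 RPKM in KI TAC hearts against 37.3, 36.4 and 37.2 RPKM in WT TAC hearts. Every KI value was below every WT value, with a log2 difference of −0.43 (SE 0.19, 95% interval −0.83 to −0.021, unadjusted p = 0.0406, adjusted p = 0.148 from limma). Mob1a was the other member without overlap, at 8.91, 6.99 and 7.30 RPKM in KI TAC against 9.24, 9.08 and 10.7 RPKM in WT TAC hearts (−0.29, SE 0.18, adjusted p = 0.280 from limma). All 3 KI values below all 3 WT values was seen in 19.4% of all genes. Stk4 differed by −0.26 (SE 0.17, 95% interval −0.62 to 0.097, adjusted p = 0.307 from limma), and KI TAC mouse 7, at 3.54 RPKM, lay between WT TAC mice 9 and 7. Without WT TAC mouse 10 the difference of Stk4 was −0.14 (adjusted p = 0.648).

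Over all genes, KI TAC hearts had lower values than WT TAC hearts, with a median log2 difference of −0.12 as deposited, −0.029 after median-ratio scaling of the libraries and −0.00038 after quantile normalization. The median of the 9 members was −0.19 as deposited. Under these scalings the difference of Wwtr1 was −0.31 (adjusted p = 0.299 from limma) and −0.36 (adjusted p = 0.245). The difference of Lats2, −0.043 as deposited, became 0.053 and 0.098 in the same order, and that of Tead1, −0.081 as deposited, became 0.036 and −0.010, so that neither has a direction. The differences of Stk4, Sav1, Yap1 and Mob1a, −0.26, −0.19, −0.23 and −0.29 as deposited, were −0.17, −0.079, −0.11 and −0.18 after median-ratio scaling. Those of Nf2 and Lats1 went the other way, from 0.22 and 0.011 to 0.335 and 0.11. After quantile normalization Stk4, Sav1 and Yap1 differed by −0.12, −0.093 and −0.14. Macrophage markers summed to 45.2 to 57.0 RPKM in KI TAC hearts against 51.9 to 98.8 RPKM in WT TAC hearts, with 3 of 6 called lower, and 1 of 6 smooth muscle and pericyte markers was called lower. The cardiomyocyte sum was 3327 to 5505 RPKM in KI TAC against 2402 to 3669 RPKM in WT TAC hearts and the fibroblast sum 118 to 194 RPKM against 149.99 to 602.6 RPKM, with no marker of either called. The part of these cells in the Hippo genes was not tested.

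Whether TAC acted differently in the 2 genotypes was tested by the interaction of genotype and surgery. No member passed the threshold and no gene of the whole table did (0 of 11240 in limma), although 1668 genes had an unadjusted p under 0.05. None of the members was among those. Wwtr1 came nearest, with an interaction of −0.55 (SE 0.27, 95% interval −1.12 to 0.020, unadjusted p = 0.0575, adjusted p = 0.351 from limma). For Mob1a, which passed the test in WT and not in KI hearts, the interaction was −0.41 (SE 0.25, 95% interval −0.95 to 0.13, adjusted p = 0.448), so that a different response of the genotypes was not shown. With 1 mouse left out it ran from −0.52 to −0.23. For Stk4 the interaction was −0.24 (SE 0.24, 95% interval −0.75 to 0.27, adjusted p = 0.636). It ran from −0.36 to −0.12 with 1 mouse left out and was −0.078 after quantile normalization.

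After sham surgery the genotypes did not separate in any member. The log2 differences between KI sham and WT sham hearts ran from −0.26 for Tead1 to 0.13 for Wwtr1, no member had an unadjusted p under 0.05 in limma, and the values of all 9 overlapped, while 2.08% of all genes were higher and 1.19% lower in KI hearts without overlap. Of all 11240 genes, 2 passed (0.0178%) and 37 had an unadjusted p under 0.05 (0.329%). For Stk4 the difference was −0.020 with a 95% interval of −0.38 to 0.34, so equality of the genotypes was not shown within these bounds. The spread behind this interval was estimated over all 4 groups, the TAC hearts among them.

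Ratios between related genes in the same heart do not depend on how the libraries are scaled, and 4 of them were formed after the values had been seen. Lats1/Lats2 was 0.89, 0.91 and 0.94 in WT sham hearts and 0.96, 1.18 and 1.23 in WT TAC hearts, and 0.95, 0.67 and 0.98 in KI sham hearts and 1.35, 1.07 and 1.11 in KI TAC hearts. In both genotypes all 3 TAC hearts had a larger share of Lats1 than all 3 sham hearts. The log2 differences were 0.29 in WT and 0.46 in KI hearts, each with p = 0.1 in an exact two-sided permutation test, the smallest p that 3 against 3 mice can give, and an adjusted p of 0.4 over the 16 tests of this kind. The exons that Lats2 shares with Gm49361 enter this ratio.

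Wwtr1/Yap1, the ratio of the TAZ to the YAP transcript, was 2.53, 1.88 and 1.96 in KI sham hearts and 1.40, 1.56 and 1.29 in KI TAC hearts, without overlap (log2 difference −0.57, exact permutation p = 0.1, adjusted p = 0.4). In WT hearts it was 1.51, 2.08 and 1.89 after sham and 1.51, 1.31 and 2.17 after TAC, with overlapping groups (exact permutation p = 0.7, adjusted p = 0.853). Mob1a/Mob1b had no overlap in WT hearts, at 7.96, 6.70 and 6.23 after sham and 5.98, 5.38 and 4.19 after TAC (exact permutation p = 0.1, adjusted p = 0.4). In KI hearts it was 5.90, 8.74 and 7.25 after sham and 7.82, 3.71 and 3.26 after TAC, with overlap (exact permutation p = 0.3, adjusted p = 0.853). Stk4/Stk3 stayed between 3.70 and 5.73 in all 12 hearts, and group means were 5.03 after sham and 4.59 after TAC in WT, and 4.72 after sham and 4.30 after TAC in KI hearts. None of these ratios passed an adjusted p of 0.05, which 3 against 3 mice cannot reach.

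**Figure D3:**
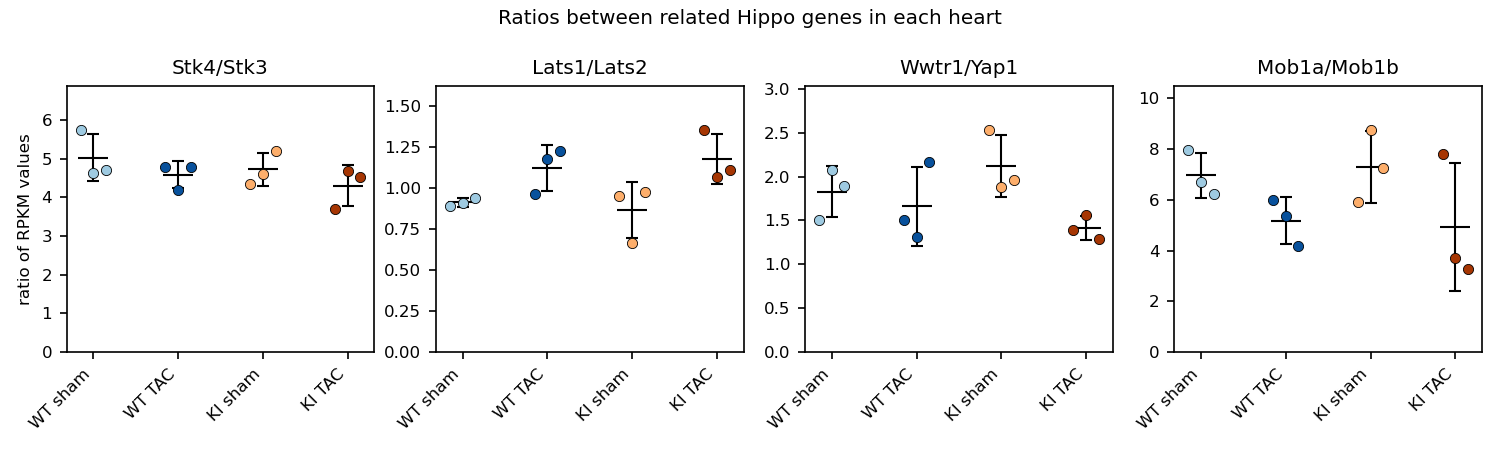
Ratios of RPKM values in each heart for Stk4/Stk3, Lats1/Lats2, Wwtr1/Yap1 and Mob1a/Mob1b; points are mice, lines are means and bars SDs (n = 3), and every axis starts at 0. Lats1/Lats2 lies higher in all TAC hearts than in the sham hearts of the same genotype (0.96 to 1.23 against 0.89 to 0.94 in WT), and Wwtr1/Yap1 lies lower in all KI TAC than in all KI sham hearts.

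Around the core, 55 further Hippo genes were listed (regulators, adaptors, related kinases, the STRIPAK phosphatase complex and TEAD paralogs), of which 51 were among the genes analysed and 50 were tested. In WT hearts 3 rose and 1 fell after TAC, a share near the 11.6% of all genes. Amot, which encodes the YAP-binding scaffold angiomotin, rose by 0.78 (SE 0.18, adjusted p = 0.0128 from limma), from 2.18, 1.70 and 2.48 RPKM to 3.95, 4.197 and 4.89 RPKM. Mob1b, the paralog of Mob1a, rose by 0.68 (adjusted p = 0.0351) from 0.63, 0.90 and 0.89 RPKM to 1.54, 1.69 and 2.56 RPKM, and Rassf5, an MST-binding adaptor, rose by 0.55 (adjusted p = 0.0406). Both MOB1 transcripts of the mouse thus rose in WT hearts. Map4k2, a kinase that can act on LATS beside MST, fell by 0.56 (adjusted p = 0.0475), from 22.6, 25.4 and 23.4 RPKM to 15.2, 18.9 and 13.6 RPKM.

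These calls were not firm, and for low genes the size depended on the scale. In limma-voom on the recovered reads the value was 1.25 for Mob1b (1.14 with a pseudocount of 0.1) and 0.91 for Rassf5 (0.86 with a pseudocount of 0.1). The call of Amot was lost without WT sham mouse 2 (0.68, adjusted p = 0.0650), that of Mob1b without each of the 6 mice in turn (0.54 to 0.78, adjusted p 0.0536 to 0.112), that of Rassf5 without any mouse but WT TAC mouse 9 (0.50 to 0.62 in the other 5 fits), and that of Map4k2 without any mouse but WT TAC mouse 9 (−0.60 to −0.47). The count of 4 became 0 without WT sham mouse 2 and 1 without WT sham mouse 1, WT sham mouse 3 or WT TAC mouse 7. The median log2 fold change of the 50 genes was 0.27, against 0.035 over all genes.

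In KI hearts 6 of the 50 rose and 4 fell after TAC, a share near the 23.3% of all genes. Amot rose by 1.17 (SE 0.18, adjusted p = 0.000603 from limma), from 2.30, 1.54 and 2.44 RPKM to 5.25, 7.51 and 5.18 RPKM. Rassf1, an adaptor of MST kinases, rose by 1.00 (adjusted p = 0.000768), from 1.32, 1.27 and 1.12 RPKM to 3.78, 3.24 and 3.36 RPKM. The angiomotin-like gene Amotl1 rose by 0.85 (adjusted p = 0.0443) and Tnik, a kinase of the MAP4K family, by 0.95 (adjusted p = 0.0302). In Tnik this rested on 2 hearts, since KI TAC mice 5 and 6 had 6.03 and 5.32 RPKM and mouse 7 had 1.49 RPKM, against 1.12 to 1.71 RPKM after sham.

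The 4 that fell in KI hearts were Strip2 (−1.43, SE 0.33, adjusted p = 0.00766 from limma), Ptpn14 (−0.87, SE 0.19, adjusted p = 0.00486), Rassf3 (−0.64, adjusted p = 0.0412) and Mink1 (−0.58, adjusted p = 0.0247). Strip2, a scaffold of the STRIPAK complex, which removes phosphate from MST kinases, was 30.3, 21.05 and 27.7 RPKM in KI sham hearts and 8.20, 11.2 and 8.06 RPKM in KI TAC hearts. Ptpn14, a phosphatase that binds YAP and is itself a YAP/TEAD target, was 10.1, 7.79 and 11.3 RPKM after sham and 4.74, 4.23 and 5.53 RPKM after TAC. The calls of Amot, Rassf1, Strip2 and Ptpn14 in KI hearts held in all 6 fits that left out 1 mouse. That of Rassf3 was lost in each of the 6 (−0.73 to −0.58), that of Amotl1 in 5, all but the one without KI sham mouse 1 (0.65 to 0.91), that of Tnik in 5, all but the one without KI TAC mouse 7 (0.68 to 1.02), and that of Mink1 in 4, without KI sham mouse 1 or 3 or KI TAC mouse 5 or 6 (−0.58 to −0.47). Without KI sham mouse 3 the count of 10 fell to 6. The median of the 50 was 0.018, against −0.10 over all genes, both as deposited.

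Between the TAC groups, 5 of the 50 were lower and 1 higher in KI hearts, a share near the 11.0% of all genes. Strip2 had the largest difference (−1.61, SE 0.33, adjusted p = 0.0126 from limma), as WT TAC hearts had 25.0, 17.3 and 59.1 RPKM. The protocadherin Dchs1, an upstream input at cell contacts, was 19.2, 14.4 and 14.8 RPKM in WT TAC hearts and 8.21, 5.19 and 8.84 RPKM in KI TAC hearts (−1.04, adjusted p = 0.0255). Slmap, another STRIPAK subunit, was 101, 103 and 68.9 RPKM in WT TAC and 49.2, 39.9 and 48.5 RPKM in KI TAC hearts (−0.96, adjusted p = 0.0367), and Ptpn14 was lower by 0.70 (−0.70, adjusted p = 0.0320). Tnik was higher (0.98, adjusted p = 0.0463). The count of 6 was 2 after median-ratio scaling, 3 after quantile normalization and 0 in a fit of the 6 TAC hearts only, and it dropped to 1 when WT TAC mouse 7 was left out, to 2 for KI TAC mouse 5 and to 1 for KI TAC mouse 6. Strip2 kept its call in all 6 fits that left out 1 mouse and lost it in the fit of the 6 TAC hearts (adjusted p = 0.0641). Dchs1 lost its call without WT TAC mouse 7 (−0.92) or KI TAC mouse 6 (−0.84), and Slmap and Ptpn14 each lost theirs in 4 of the 6 (−1.01 to −0.86 and −0.71 to −0.62), among them the fits that left out mouse 7 of the WT TAC group and mouse 5 or 6 of the KI TAC group. Slmap also lost it without WT TAC mouse 9, Ptpn14 without WT TAC mouse 10, and Tnik in 5 of the 6, all but the one without KI TAC mouse 7 (0.70 to 1.02).

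**Figure D4:**
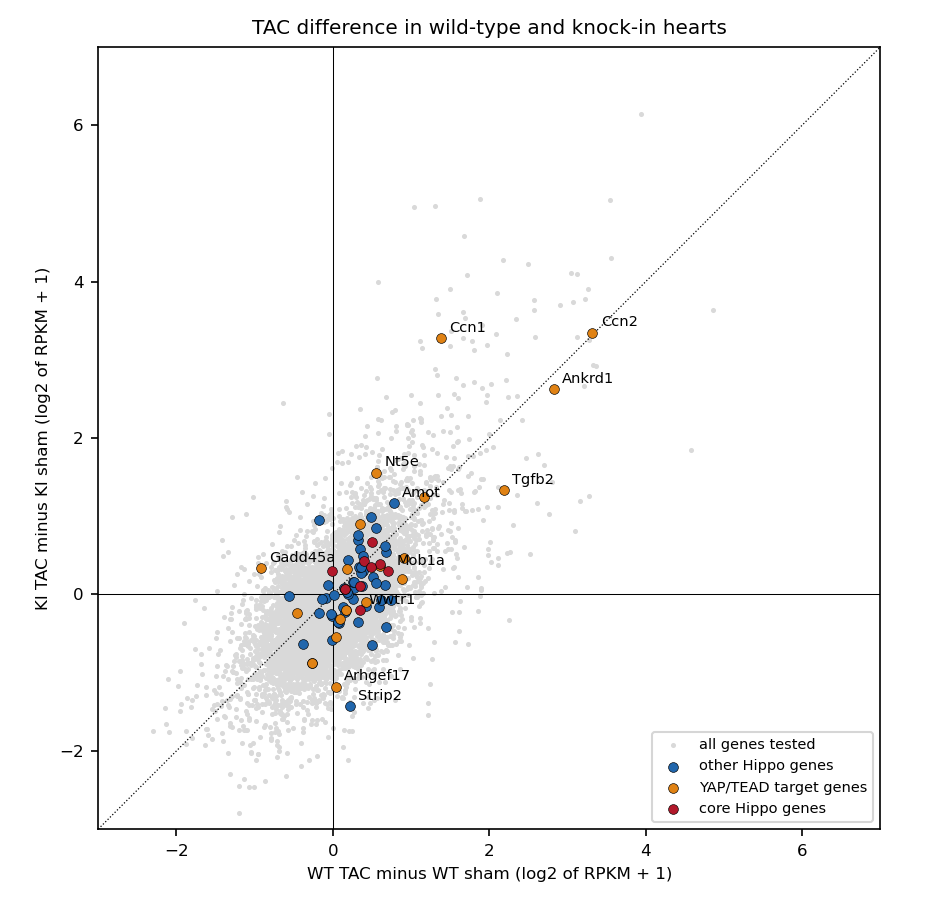
Fitted log2 differences between TAC and sham hearts for all 11240 genes tested, WT on the horizontal and KI on the vertical axis (both log2 of RPKM + 1); coloured points are the core Hippo genes (red), the other Hippo genes (blue) and the YAP/TEAD target genes (orange), and the dotted line marks equal differences. The 9 core genes tested lie within −0.20 and 0.71 on both axes, while the target genes Ccn2 and Ankrd1 lie near the line at 3.32 and 2.83 in WT hearts.

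Of genes known as targets of YAP, TAZ and TEAD, 22 were listed, all present and 20 tested. Neither the location of YAP and TAZ nor TEAD binding was measured. Whether the levels of these genes report YAP/TEAD activity in these hearts was not tested. Lats2 is both a member and a target, and Amotl2 and Ptpn14 stand in both lists. In WT hearts 6 rose and none fell after TAC, beside 6.96% of all genes that rose. Ccn2, which encodes the matricellular protein CTGF, was 32.1, 21.2 and 20.98 RPKM in WT sham hearts and 304, 431 and 121 RPKM in WT TAC hearts. The rise was 3.32 on the log2 scale (SE 0.36, adjusted p = 0.000153 from limma). Ankrd1, a cardiac ankyrin repeat protein of the sarcomere and nucleus, was 185, 77.2 and 156 RPKM after sham and 960.5, 914 and 923 RPKM after TAC (2.83, SE 0.34, adjusted p = 0.000316). Tgfb2, a growth factor, was 1.84, 1.35 and 1.39 RPKM after sham and 13.8, 10.3 and 7.93 RPKM after TAC (2.18, SE 0.27, adjusted p = 0.000374), and Fjx1, related to the fly kinase four-jointed, rose by 1.16 (SE 0.31, adjusted p = 0.0256). All 3 of Ccn2, Ankrd1 and Tgfb2 kept their calls in each of the 12 other fits, while Fjx1 lost its call without WT sham mouse 2 or 3 or WT TAC mouse 7 or 9 (1.09 to 1.12) and had a value of 1.79 with a pseudocount of 0.1 and 1.89 in limma-voom.

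In KI hearts 7 of the 20 rose and 2 fell, beside 8.57% and 14.7% of all genes. Ccn2 was 23.7, 35.0 and 29.4 RPKM in KI sham hearts and 346, 263 and 311 RPKM in KI TAC hearts (3.35, SE 0.36, adjusted p = 7.21e-05 from limma). Ankrd1 was 91.8, 239 and 131 RPKM after sham and 935, 994 and 739 RPKM after TAC (2.63, SE 0.34, adjusted p = 0.000227). Both genes thus rose in both genotypes, and for neither did the TAC groups differ past the threshold (0.28, 95% interval −0.50 to 1.05, and −0.080, 95% interval −0.82 to 0.66). The interactions were 0.030 for Ccn2 (95% interval −1.07 to 1.13, adjusted p = 0.984) and −0.20 for Ankrd1 (95% interval −1.25 to 0.85, adjusted p = 0.862). Tgfb2 and Fjx1 also rose in both genotypes. Tgfb2 was 2.15, 1.19 and 1.49 RPKM in KI sham hearts and 4.84, 3.47 and 9.54 RPKM in KI TAC hearts (1.33, SE 0.27, adjusted p = 0.00383 from limma), and its interaction was −0.85 (SE 0.39, adjusted p = 0.330). Fjx1 was 1.42, 1.69 and 1.504 RPKM after sham and 10.9, 2.87 and 3.77 RPKM after TAC (1.25, SE 0.31, adjusted p = 0.00999), with an interaction of 0.092 (SE 0.43, adjusted p = 0.932). The calls of both in KI hearts held in all 6 fits that left out 1 mouse, and without KI TAC mouse 5 the value of Fjx1 was 0.76.

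Ccn1, which encodes CYR61, was 53.1, 58.7 and 45.9 RPKM in KI sham hearts and 1676, 383 and 215 RPKM in KI TAC hearts, a log2 fold change of 3.28 (SE 0.66, adjusted p = 0.00343 from limma). KI TAC mouse 5 stood far above its group, and the call held in all 6 fits that left out 1 mouse (2.44 to 3.91). In WT hearts Ccn1 was 91.8, 44.9 and 35.4 RPKM after sham and 147, 309.6 and 58.2 RPKM after TAC (1.38, SE 0.66, adjusted p = 0.191), and the interaction of 1.90 (SE 0.93) had an adjusted p of 0.357. Nt5e, the ecto-enzyme CD73, rose by 1.56 in KI hearts (SE 0.39, adjusted p = 0.0122), to 17.6, 8.31 and 3.20 RPKM from 2.202, 1.79 and 2.19 RPKM. Its call held in all 6 fits that left out 1 mouse, with a value of 1.03 without KI TAC mouse 5. The 2 that fell were Ptpn14 and Arhgef17. Arhgef17 was 70.3, 47.4 and 72.9 RPKM after sham and 27.9, 20.1 and 35.0 RPKM after TAC (−1.18, SE 0.24, adjusted p = 0.00347).

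**Figure D5:**
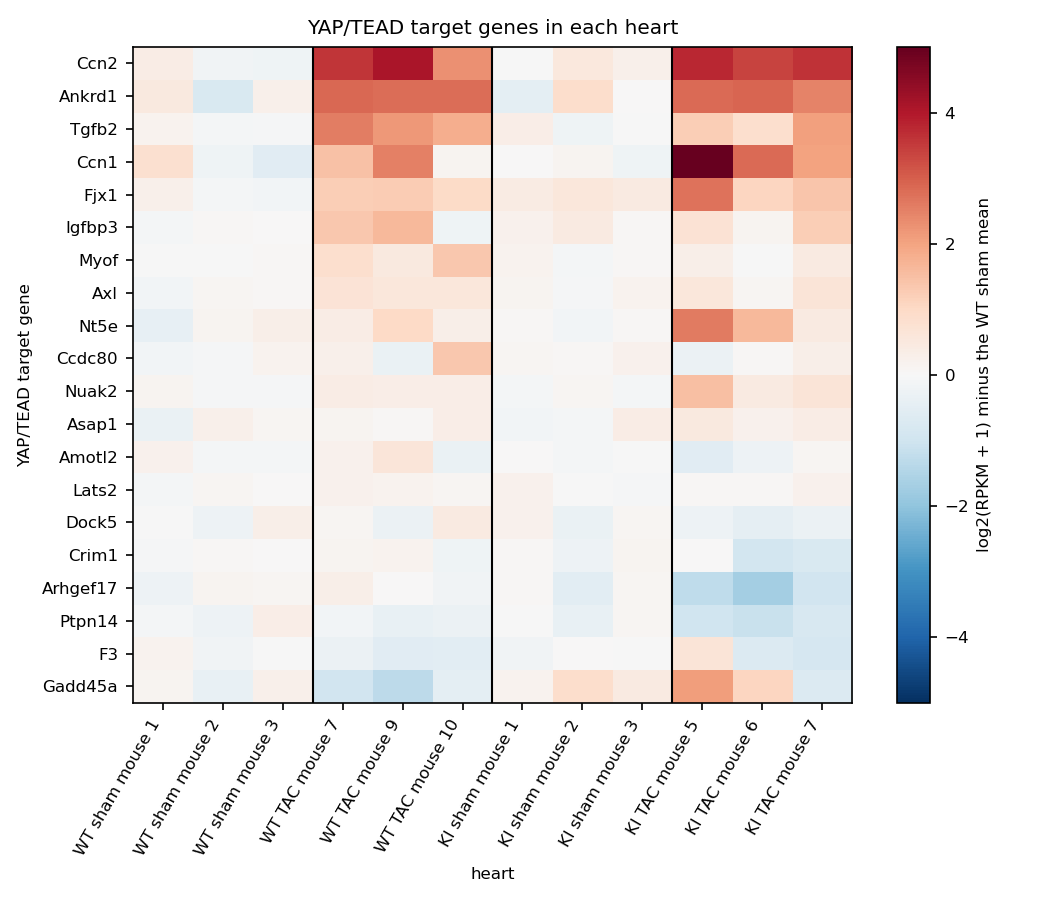
Level of the 20 tested YAP/TEAD target genes (rows) in each of the 12 hearts (columns) as log2(RPKM + 1) minus the mean of the WT sham hearts; red is higher and blue lower, and black lines part the 4 groups. Ccn2 and Ankrd1 are red in all 6 TAC hearts, Ccn1 most in KI TAC mouse 5, and Arhgef17 and Ptpn14 are blue in the 3 KI TAC hearts.

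Between the TAC groups 1 target was higher and 3 were lower in KI hearts, beside 2.92% and 8.13% of all genes. Arhgef17 was 82.5, 69.2 and 59.7 RPKM in WT TAC hearts, above every KI TAC heart (−1.34, SE 0.24, adjusted p = 0.00706 from limma), and it kept its call in each of the 12 other fits. Gadd45a, a stress gene, was 3.77, 2.70 and 5.60 RPKM in WT TAC and 38.0, 18.7 and 4.84 RPKM in KI TAC hearts (1.76, SE 0.49, adjusted p = 0.0381). KI TAC mouse 7 lay within the WT range, and the call was lost when mouse 7 or 9 of the WT TAC group or mouse 5 or 6 of the KI TAC group was left out (1.13 to 1.74). Myof, a membrane repair protein, was 2.46, 1.69 and 3.88 RPKM in WT TAC and 1.34, 0.90 and 1.65 RPKM in KI TAC hearts (−0.65, SE 0.19, adjusted p = 0.0466), a call that 8 of 12 other fits lost, among them those that left out mouse 7 or 10 of the WT TAC group or mouse 5 or 6 of the KI TAC group (−0.67 to −0.42). In limma-voom, which kept it, the value was −1.01. The count of 4 was 2 after either scaling, 1 in a fit of the 6 TAC hearts only, and 1 to 7 when 1 mouse was left out (1 without WT TAC mouse 7 or KI TAC mouse 6, 2 without WT TAC mouse 10 or KI TAC mouse 5, and 7 once KI TAC mouse 7 was left out). The median difference of the 20 targets was −0.12, the same as that of all genes.

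Set beside the members, the target genes had similar medians and a wider range. In WT hearts the median log2 fold change was 0.38 for the 20 targets and 0.39 for the 9 members, but the targets ran from −0.92 to 3.32 and the members from −0.0056 to 0.71. In KI hearts the medians were 0.33 and 0.30, and the ranges −1.18 to 3.35 and −0.20 to 0.68. With values as deposited, medians of both lists lay above those of all genes in both genotypes (0.035 in WT and −0.10 in KI hearts).

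The pattern of Stk4 over the 12 hearts was most like that of Pphln1 (Pearson r = 0.99 of log2(RPKM + 1) over 12 mice), Pdgfra (r = 0.95) and Pgm3 (r = 0.94). Pdgfra, a marker of cardiac fibroblasts, was 4.87, 4.23 and 4.88 RPKM in WT sham hearts, 7.65, 6.46 and 8.36 in WT TAC, 5.84, 3.89 and 5.12 in KI sham and 4.39, 6.08 and 7.69 in KI TAC hearts. In both genes the highest value of the series was that of WT TAC mouse 10 and the lowest that of KI sham mouse 2. Pdgfra is 1 of the 6 fibroblast markers listed, of which none was called after TAC in WT hearts and 1 was called lower in KI hearts. Their sum was 118 to 194 RPKM in KI TAC hearts against 164 to 258 RPKM in KI sham hearts. Among the members Stk4 was closest to its paralog Stk3 (r = 0.89), which was under the filter of the other genes, and with the remaining 8 the r of Stk4 ran from 0.26 for Sav1 to 0.67 for Mob1a. Yap1 was most like Ppp4r1 (r = 0.96), Kazn (r = 0.94) and Zfp202 (r = 0.94), and among members it was closest to Sav1 (r = 0.73) and Lats1 (r = 0.68). These values describe the 12 hearts, which share the group structure and the scaling of each library.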

How the data were processed

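RNA of 12 hearts (4 groups of 3 mice) was sequenced as single reads of 75 bases from poly(A)-selected, strand-specific libraries. The submitters' processing notes name Trimmomatic 0.39, HISAT2 2.2.1, GRCm38, HTSeq 0.6.1, edgeR 3.18.1, limma 3.32.10 and R 4.1.1. The authors deposited a table of 13552 genes whose values match RPKM: times the exon lengths of GENCODE M21 (found for 13546 genes) they sum to 997702 to 1002226 per mouse. The unit and the filter on genes are not given in the sources used here. Low values were whole multiples of 1 read (tolerance 0.02) in 97.2% to 97.9% of cases and in at most 5.81% with a wrong step, which gave depths of 23650191 to 32455166 reads. No further scaling between libraries was seen.

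Groups followed the labels for genotype and treatment. limma 3.58.1 (lmFit, eBayes with trend; R 4.3.3) was fitted to log2(RPKM + 1) of all 12 mice in 4 groups, for the 11240 genes with 3 or more mice at or above 1 RPKM, with Benjamini-Hochberg adjusted p at a threshold of 0.05. Whether mice of a group came from separate litters or days was not stated, so p-values measure the spread between these mice. The fit was tested on simulated data. Alternatives were a pseudocount of 0.1, no filter, median-ratio scaling, quantile normalization, limma-voom on recovered reads (11236 genes), only the groups compared, each mouse left out, and a replicate block. Ratios were chosen later, with the values in view, and tested by exact permutation.

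Members and lists were chosen with earlier results of these data known. Named are all members, Bcl2l1, at most 4 increases and 4 decreases past the threshold per list and comparison, and the 3 genes most like Stk4 and Yap1. Marker lists were written from general knowledge and summed in RPKM. The ranges over all hearts were 8.70 to 22.7 for adipocyte (1 of 5 present) and 0.21 to 2.47 for atrial markers (1 of 5). They were 261 to 385 for endothelial (6 of 6), 74.8 to 257 for erythroid (5 of 5) and 130 to 222 for smooth muscle and pericyte markers (6 of 6). Sequences are from RefSeq (GRCm38.p6). Python 3.11.15, pandas 2.3.3, numpy 2.4.6, scipy 1.17.1 and matplotlib 3.10.9 were used.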

Additional observations from a re-analysis of the deposited data

How the results depend on the processing

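Of the members, Mob1a in WT hearts kept its call under all 6 processing alternatives, and the count of members past the threshold after TAC ranged from 0 to 3 in WT and from 0 to 2 in KI hearts when 1 mouse was left out, and was 1 in KI hearts after quantile normalization. The count stayed 0 for both comparisons of KI with WT hearts, after TAC and after sham, and for the interaction, under every alternative run. The other Hippo genes past the threshold numbered 0 to 4 in WT hearts, 6 to 10 in KI hearts and 1 to 6 between the TAC groups with 1 mouse left out, and 2 after median-ratio scaling, 3 after quantile normalization and 0 with only the TAC groups fitted. The YAP/TEAD target genes between the TAC groups numbered 1 to 7 with 1 mouse left out, 2 after median-ratio scaling, 2 after quantile normalization and 1 with only the TAC groups fitted. The cause was not tested, except that fits without a mouse or group hold fewer samples. Of the 34 calls named in the text, 16 held with each of the 6 mice left out in turn, and those lost under another processing are Map4k2 in WT hearts (median-ratio scaling, only the groups compared), Rassf3 (quantile normalization), Mink1 and Tnik in KI hearts (only the groups compared), and, between the TAC groups, Dchs1, Strip2, Gadd45a, Slmap, Ptpn14, Myof and Tnik (only the groups compared), of which Slmap, Ptpn14 and Myof were also lost under both scalings, Tnik without the filter and under median-ratio scaling, and Myof with a pseudocount of 0.1.

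The direction of a log2 difference turned under some alternatives in members that were past no threshold. Between the TAC groups Lats2 became 0.053 after median-ratio scaling and 0.098 after quantile normalization and Tead1 0.036 after median-ratio scaling, and the interaction of Lats2 became 0.015 and 0.076 in the same order. With 1 mouse left out, the values ran from −0.0093 to 0.22 for Stk4 after TAC in KI hearts and from −0.088 to 0.072 for Nf2 after TAC in WT hearts. Between the TAC groups they ran from −0.38 to 0.024 for Sav1, −0.048 to 0.086 for Lats1 and −0.23 to 0.17 for Tead1. Between the sham groups they ran from −0.10 to 0.077 for Stk4, −0.057 to 0.086 for Sav1, −0.17 to 0.14 for Lats1, −0.038 to 0.094 for Lats2, −0.062 to 0.23 for Mob1a, −0.045 to 0.29 for Wwtr1 and −0.51 to 0.067 for Tead1. The interaction ran from −0.41 to 0.00094 for Sav1, −0.12 to 0.18 for Lats1, −0.34 to 0.031 for Yap1 and −0.15 to 0.43 for Tead1.

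With the replicate block, which could be fitted for the 6 sham mice only, 0 members passed, as without it. The deviations of same-numbered sham mice had r = −0.22, −0.30 and 0.44 for numbers 1, 2 and 3, where the highest r with another number was 0.43, 0.25 and 0.088, so that the mice numbered 3 deviated together and the others did not, and the numbers were not taken to pair the mice. For the other comparisons no paired analysis was possible because the groups share fewer than 2 replicate numbers. Among the 10 members depth limits Stk3 most, at 78 to 151 reads.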
